A study of Mus musculus with 9 samples.

Results

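C1qa, C1qb and C1qc encode the 3 chains of complement C1q, and they were 3 of the 18634 genes counted in single cells of the mouse brain. They were taken by name, with earlier results of these data known. The study took 3 brain regions (brainstem, cortex, hypothalamus) in 3 sleep groups, and sequenced the dissociated cells as 9 libraries on the 10x Chromium system, version 2. In this assay each captured transcript carries a unique molecular identifier (UMI), so copies made by PCR count once. Each library held the tissue of 3 pooled mice, so there is 1 library for each region and sleep group, no value has a replicate, and no test between groups was made.

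All mice were C57BL/6 (C57BL/6J in the study's methods) males aged 9 to 11 weeks, and the labels name no allele or agent. Normal Sleep (NS) mice slept ad libitum from ZT0 and were sampled at ZT12, the hour of lights off. Sleep Deprived (SD) mice were kept awake for the same 12 h in chambers with a motor-driven sweep. Recovery Sleep (RS) mice had the same deprivation followed by recovery, for which the labels give 24 h in one place and 12 h in another. Brains of all groups were dissociated with papain and passed over myelin removal beads. The table names its libraries by codes that the labels do not explain, and the libraries are numbered here from 1 to 9 by their first appearance in it. The study also published a list of barcodes with cell types, of which 1999 were read here, all from brainstem NS. Library 7 held 1999 of these, and each of the others held 5 to 13, so library 7 was taken as brainstem NS. The other 8 libraries were given no region and no sleep group.

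The libraries held 2575 to 3916 cells and 1522766 to 5488950 UMIs, with a median of 402 to 1055 UMIs per cell. Any pair of libraries shared 5 to 25 barcodes. Libraries 4, 5 and 6 stood apart in that Gh, the pituitary growth hormone gene, took 25.3% to 32.1% of their UMIs, against at most 0.00755% elsewhere. Levels are given as CPM, the UMIs of a gene summed over cells and scaled to a total of 1000000 UMIs of the same cells. Since only the 3′ ends of transcripts are counted, these values do not scale with transcript length, and the chains are compared as counted 3′ ends. The 95% intervals are exact Poisson for CPM and exact Clopper-Pearson for shares, and they cover counting error only. In microglia of library 7, all 10 of 10 microglia markers were highest among the listed types, and in macrophages all 10 of 10 macrophage markers were.

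C1q is the recognition molecule of the classical complement pathway. Its A, B and C chains each have a collagen-like stem and a globular head, they assemble into one molecule, and that molecule carries the proteases C1r and C1s, which start the cascade once C1q has bound a surface. In the brain microglia are known as the main source of C1q, and C1q bound to synapses is known to mark them for removal by these cells. The 3 genes lie next to each other on the minus strand of chromosome 4 (GRCm38, GENCODE vM21). C1qb (ENSMUSG00000036905.8) spans chr4:136880129-136886187, C1qc (ENSMUSG00000036896.5) chr4:136889804-136893065 and C1qa (ENSMUSG00000036887.5) chr4:136895917-136898803. The gaps between them are 3616 bases from C1qb to C1qc and 2851 bases from C1qc to C1qa, with no annotated gene in between. No other annotated gene overlaps any of them. Their coding transcripts have 3 exons each, with the start codon in exon 2.

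The collagen-like stem can be read directly in the coding sequences, since collagen repeats a glycine followed by a pair of other amino acids, and all 4 glycine codons start with GG. The coding sequences of C1qa, C1qb and C1qc are 735, 759 and 738 bases long and hold 39, 40 and 39 glycine codons. The longest unbroken stretch of this repeat has 16 glycine codons in C1qa (exon 3, chr4:136896565-136896708), 29 in C1qb (exon 2, chr4:136882127-136882217, and exon 3, chr4:136880700-136880869) and 16 in C1qc (exon 3, chr4:136890439-136890582). These stretches are shown because each of the 3 chains has this repeat, and the globular heads are not shown. The stretches are given 5′ to 3′ on the coding strand, from the GENCODE vM21 transcripts, with the glycine codons in capitals.
C1qa: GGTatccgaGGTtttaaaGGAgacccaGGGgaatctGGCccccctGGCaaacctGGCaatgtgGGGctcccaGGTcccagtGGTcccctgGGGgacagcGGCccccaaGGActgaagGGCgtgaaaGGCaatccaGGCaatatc
C1qb: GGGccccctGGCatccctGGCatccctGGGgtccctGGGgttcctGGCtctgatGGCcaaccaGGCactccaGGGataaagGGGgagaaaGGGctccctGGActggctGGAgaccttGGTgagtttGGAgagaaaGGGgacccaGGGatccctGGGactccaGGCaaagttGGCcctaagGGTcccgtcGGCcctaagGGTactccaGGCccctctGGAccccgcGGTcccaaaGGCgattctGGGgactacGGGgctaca
C1qc: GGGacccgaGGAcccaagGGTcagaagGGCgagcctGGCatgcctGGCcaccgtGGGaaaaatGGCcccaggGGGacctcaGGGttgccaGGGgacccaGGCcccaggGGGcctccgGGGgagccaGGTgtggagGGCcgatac
The glycine codon GGC was used 7 times in the C1qa stretch, 10 times in that of C1qb and 6 times in that of C1qc, and GGG 3, 11 and 7 times. Aligned over their whole length, the coding sequences were 56.4% identical between C1qa and C1qb, 54.1% between C1qa and C1qc and 56.4% between C1qb and C1qc. The longest run of bases shared by 2 of the transcripts was 15 bases, between C1qb and C1qc.

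Among the cell types of brainstem NS, the 3 chains were highest in microglia, the resident immune cells of the brain, and second in macrophages. In the 549 microglia, C1qa stood at 7359 CPM (7125 to 7599), C1qb at 9078 CPM (8818 to 9344) and C1qc at 7733 CPM (7493 to 7979). These 3 genes made up 2.42% of all UMIs of microglia, and by level C1qb was in place 7, C1qc in place 9 and C1qa in place 11 among 18634 genes. In the 67 macrophages the chains stood at 2758 CPM (2412 to 3139), 2962 CPM (2604 to 3357) and 2987 CPM (2626 to 3382), with intervals that overlap one another. The level in microglia was 2.67 times that in macrophages for C1qa, 3.06 times for C1qb and 2.59 times for C1qc, beyond counting error for each chain.

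All other listed types lay far lower. Glutamatergic neurons (55 cells) held C1qa at 610.1 CPM (417 to 861), C1qb at 1029.6 CPM (773 to 1343) and C1qc at 591 CPM (402 to 839). Ependymocytes (EPC, 88 cells) held 323, 446 and 493 CPM, astrocytes (188 cells) 200, 353 and 265 CPM, and endothelial cells (573 cells) 200.5, 316 and 208 CPM. Pericytes (168 cells) held 115, 223 and 203 CPM, and vascular smooth muscle cells (VSMCA, 230 cells) 114, 198 and 117 CPM. For the 3 chains summed, the order from microglia over macrophages, glutamatergic neurons and EPC to astrocytes exceeded counting error at each step, but below macrophages it rested on 9 cells with at least 10 C1q UMIs, without which glutamatergic neurons, EPC and astrocytes had overlapping intervals. From astrocytes (818 CPM) over endothelial cells (725 CPM) and pericytes (541 CPM) to VSMCA (428 CPM), each neighbour's interval overlapped the next. Types with fewer than 50 cells have wide intervals. The summed level was 849 CPM (549 to 1253) in the 18 other neurons, 796 CPM (555 to 1107) in the 19 hemoglobin-expressing vascular cells (HbVC), where hemoglobin took 69.0% of the UMIs, and 519 CPM (379 to 695) in the 43 oligodendrocytes. The single cell listed as Unknown held 1 UMI of C1qb and none of the other chains.

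**Figure D1:**
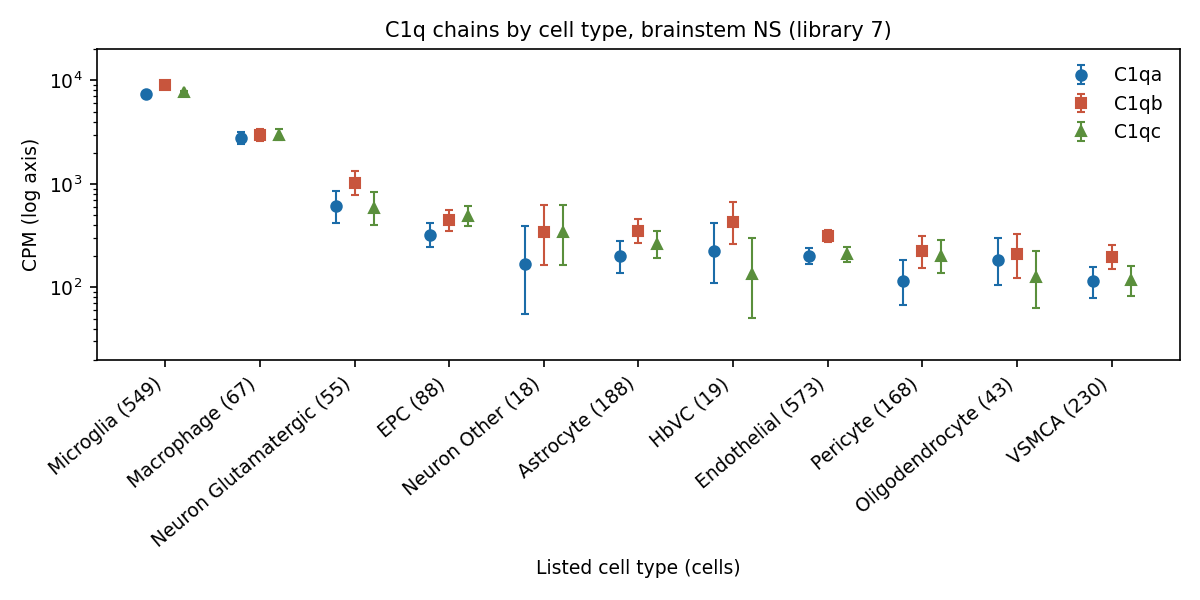
CPM of C1qa, C1qb and C1qc (log axis) in each listed cell type of brainstem NS, library 7, ordered by the summed level. Points are UMIs summed over the cells given in brackets, bars are 95% exact Poisson intervals, and microglia (7359 to 9078 CPM) and macrophages (2758 to 2987 CPM) lie above every other type.

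Nearly all C1q UMIs of the listed cells came from those myeloid types. Microglia held 86.1% (85.5% to 86.6%) of the 14243 C1q UMIs and macrophages 5.08% (4.72% to 5.45%), while they made up 27.5% and 3.35% of the cells. Together they held 91.2% (90.7% to 91.6%).

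Single microglia carried the chains together. Of 549 microglia, 4 lacked a UMI of C1qa, 1 lacked C1qb and 3 lacked C1qc, so 99.3%, 99.8% and 99.5% of the cells had at least 1. The median microglial cell held 6 UMIs of C1qa, 7 of C1qb and 6 of C1qc, and the highest counts in a cell were 38, 47 and 26. The 3 chains summed ran from 3 to 103 UMIs per microglial cell with a median of 21, or from 0.410% to 5.19% of the cell's UMIs. All 3 chains were found in 98.5% of microglia and no microglial cell lacked all of them. Of the 67 macrophages, 59.7% held all 3 chains and 20.9% held none, and the median cell held 9 C1q UMIs with a range from 0 to 40. In endothelial cells 55.5% held no chain, 33.7% exactly 1 and 2.44% all 3, and in pericytes these shares were 64.9%, 29.8% and 1.79%.

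These shares depend on depth, so each cell was also thinned to 500 UMIs, leaving out shallower cells. Of 542 microglia, 92.6% then still held all 3 chains, against 34.8% of 66 macrophages, 4.55% of 88 EPC, 0.702% of 570 endothelial cells and 0 of 164 pericytes. By chain, 96.5% of thinned microglia had a UMI of C1qa, 98.2% of C1qb and 97.8% of C1qc. Over all listed cells other than microglia and macrophages, 7.65%, 13.4% and 8.89% of 1372 thinned cells had one, against 15.0%, 25.2% and 18.1% of 1383 cells before thinning. Shares in these cells are given for comparison because a droplet can also hold free RNA, whose part in them was not tested.

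**Figure D2:**
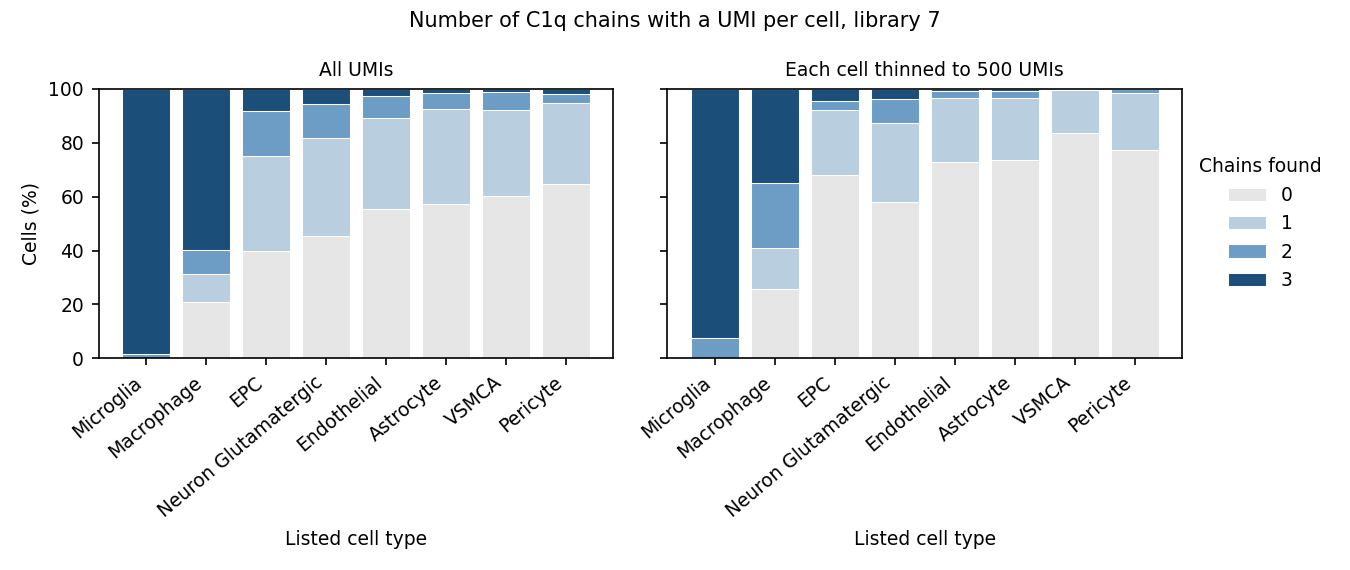
Share of cells (%) in which 0, 1, 2 or 3 C1q chains had at least 1 UMI, by listed type of library 7, with all UMIs (left) and with each cell thinned to 500 UMIs (right). Microglia hold all 3 chains in 98.5% and 92.6% of cells, and macrophages, with 59.7% and 34.8%, are the type next to them.

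A few cells listed under other names carried many C1q UMIs. Cells with at least 10 C1q UMIs numbered 514 of 549 microglia and 33 of 67 macrophages. They were also 8 of 573 endothelial cells, 4 of 88 EPC, 3 of 55 glutamatergic neurons, 2 of 188 astrocytes and 1 of 19 HbVC, and none of 230 VSMCA, 168 pericytes, 43 oligodendrocytes or 18 other neurons. All 18 of these cells outside the myeloid types also carried UMIs of the 10 microglia markers, as did 29.9% of the remaining endothelial cells and 42.3% of the remaining glutamatergic neurons. In glutamatergic neurons these 3 cells held 80 of 117 C1q UMIs, or 68.4%, and in EPC 4 cells held 122 of 215, or 56.7%. In astrocytes they held 28.1% and in endothelial cells 25.5% of the C1q UMIs. Without them the summed level was 781 CPM (550.1 to 1077) in glutamatergic neurons, 594 CPM (479 to 728) in EPC, 601 CPM (489 to 731) in astrocytes and 549.6 CPM (493 to 610.3) in endothelial cells. The fall itself follows from the choice of cells by their C1q UMIs, which was made after the values had been seen. Microglia marker UMIs thus moved with C1q in these cells. The doublet caller Scrublet called 43 of the 3731 cells of library 7. Without called doublets, microglia and macrophages held 92.7% of the C1q UMIs of the listed cells, against 91.2% with them. How many of the 18 cells were called is not given, and whether their droplets held 2 cells was not tested further.

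The whole-library level of the chains varied widely between the 9 libraries. C1qa stood at 1028, 478 and 254 CPM in libraries 1 to 3, at 173, 245 and 30.4 CPM in libraries 4 to 6, and at 1685, 1176 and 778 CPM in libraries 7 to 9. C1qb stood at 1013, 474 and 231 CPM, at 163, 239.9 and 29.0 CPM, and at 2162, 1541 and 998 CPM in the same order. C1qc stood at 921, 342 and 195 CPM, at 134, 179 and 24.6 CPM, and at 1821, 1293 and 803 CPM. Library 7 was highest and library 6 lowest for every chain, 55.4 times apart for C1qa, 74.6 times for C1qb and 74.0 times for C1qc. Library 6 alone set much of these folds, and without it library 7 stood 9.74, 13.3 and 13.6 times above library 4, the next lowest. The chains moved together: the median over libraries was 478 CPM for C1qa, 474 CPM for C1qb and 342 CPM for C1qc, and library 2 held all 3 medians. A UMI of C1qa was found in 39.4% of cells in library 7 and 1.81% in library 6, and after thinning to 500 UMIs in 32.1% and 1.10%. For C1qb these shares were 45.6% and 1.99%, and for C1qc 40.1% and 1.79%.

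In single-cell libraries such a level depends on how many cells of a type were caught and on the level per cell. All cells were therefore clustered without regard to library and without the complement genes, and clusters were called microglia-like or macrophage-like from the fixed markers. Microglia-like cells made up 17.9%, 7.97% and 5.36% of libraries 1 to 3, 3.09%, 3.73% and 0.511% of libraries 4 to 6, and 26.6%, 20.9% and 16.2% of libraries 7 to 9. Macrophage-like cells made up 0.562% of library 6 to 4.50% of library 9. The 2 classes together held 66.6% (62.1% to 70.9%) of the C1q UMIs in library 6, where they were 42 of 3916 cells, and 81.4% to 92.8% in the other 8 libraries.

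Within microglia-like cells the libraries lay much closer together. The summed chains stood at 22923, 20924 and 16793 CPM in libraries 1 to 3, at 12561, 16603 and 6999.8 CPM in libraries 4 to 6, and at 23422, 21913 and 14434 CPM in libraries 7 to 9. The highest was 3.35 times the lowest, against 67.5 times over all cells, and without library 6 these folds were 1.86 and 12.1. With mitochondrial, hemoglobin and Gh UMIs left out of the totals, the lowest and highest levels in microglia-like cells were 10968 and 25011 CPM. Among cells of at least 1000 UMIs they were 4045 and 21340.0 CPM. Library 6, the lowest at 6999.8 CPM (5928 to 8209.6), rests on 20 microglia-like cells in which Gh alone stood at 336223 CPM, and Gh stood at 134264 CPM in library 4 and 46109.7 CPM in library 5. Per UMI of the 10 microglia markers, a ratio that does not use the cell totals, microglia-like cells held 1.27 C1q UMIs in library 7 to 2.36 in library 6, with a median of 1.47. The lowest ratios, 1.27 to 1.50, were those of libraries 1, 2, 3, 7, 8 and 9, and libraries 4, 5 and 6 held 1.56, 2.33 and 2.36. The marker sum itself was 18408 CPM in library 7 and 2967 CPM in library 6.

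**Figure D3:**
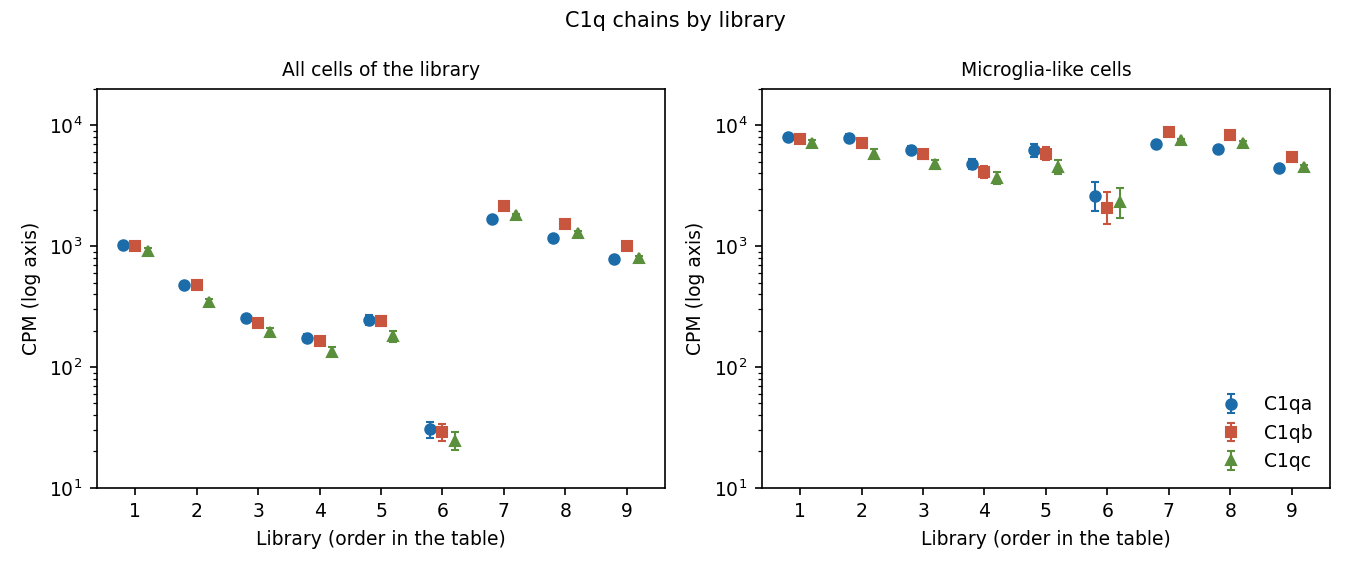
CPM of the 3 chains (log axis) in each library, over all cells (left) and over microglia-like cells (right), with 95% exact Poisson intervals as bars. Over all cells C1qa runs from 30.4 to 1685 CPM, and over microglia-like cells from 2596 to 8031 CPM.

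The microglia-like cells of the libraries did not come from the same clusters. Cluster 4, led by Ccl4 and P2ry12, held 857 of the 993 microglia-like cells of library 7, 414 of 735 in library 8 and 264 of 601 in library 9. Cluster 10, which is shallower with a median of 474 UMIs per cell, held 382 of 460 in library 1 and 172 of 253 in library 2. Within cluster 4 the summed level was 19685 to 27927 CPM over libraries 1 to 9, with 1 to 857 cells each. Library 9 was the lowest there, at 19685 CPM (19143 to 20239), and mitochondrial genes took 6.58% of its UMIs against 3.27% in library 7, 4.43% in library 8 and 1.35% to 4.60% in the others. Within cluster 10 it was 5386 CPM in library 6 to 25536 CPM in library 1. Clusters 24 and 25, which also met the naming rule for endothelial cells and for astrocytes, stood at 9053 CPM (8712 to 9403) and 10225 CPM (9742 to 10725) over all libraries.

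Macrophage-like cells held less C1q than microglia-like cells in 7 of 9 libraries. Their summed level was 17836, 11701 and 11513 CPM in libraries 1 to 3, 13294, 13608 and 7419.7 CPM in libraries 4 to 6, and 8819, 9279 and 8406 CPM in libraries 7 to 9. In library 4 (13294 CPM, 12256 to 14397, against 12561 CPM, 11803 to 13355) and in library 6 the intervals of the classes overlapped. In these 2 libraries Gh took 13.4% and 33.6% of the UMIs of microglia-like cells and 2.71% and 14.8% of those of macrophage-like cells. With mitochondrial, hemoglobin and Gh UMIs left out of the totals, microglia-like cells were the higher class in all 9 libraries, at 15490.0 against 14582 CPM in library 4 and 10968 against 8949 CPM in library 6, and the intervals still overlapped in both. The cells of library 7 held 8819 CPM (8361 to 9296), and the listed macrophages of the same library 8707 CPM (8083 to 9365).

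The proportions of the chains also differed between libraries. In microglia-like cells of libraries 1 to 3, C1qa took 35.0%, 37.9% and 37.6% of the C1q UMIs and C1qb 33.7%, 34.2% and 34.2%. In libraries 4 to 6, C1qa took 38.2%, 37.4% and 37.1% and C1qb 32.8%, 35.2% and 29.8%. In libraries 7 to 9, C1qa took 30.0%, 29.2% and 30.7% and C1qb 37.7%, 38.1% and 37.9%. The number of C1qb UMIs per C1qa UMI was thus 0.804 to 0.963 in libraries 1 to 6 and 1.23 to 1.30 in libraries 7 to 9. C1qc took 27.4% to 33.1% over the 9 libraries, and its ratio to C1qa was 0.733 to 0.893 in libraries 1 to 6 and 1.02 to 1.12 in libraries 7 to 9.

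Intervals of the C1qb to C1qa ratio overlapped for every pair of libraries among 1 to 3, among 4 to 6 and among 7 to 9, and also for all 9 pairs of 1 of libraries 1 to 3 with 1 of 4 to 6. Of the 18 pairs of 1 of libraries 1 to 6 with 1 of libraries 7 to 9, 17 did not overlap, the exception being library 6 (0.530 to 1.21) with library 9 (1.17 to 1.30). The codes of libraries 1 to 3 share their first 6 characters, as do those of 4 to 6 and those of 7 to 9, and what the codes mean is not given in the sources used here, so region, sleep group, preparation and sequencing cannot be told apart. Within clusters 4 and 10, which hold most of the microglia-like cells, the ratio was higher in each of libraries 7 to 9 than in each of libraries 1 to 6: in cluster 4 it was 0.571 to 1.06 in libraries 1 to 6 and 1.24 to 1.28 in libraries 7 to 9, and in cluster 10 it was 0.774 to 1.04 and 1.13 to 1.35. Not all of these differences exceeded counting error. In cluster 4 library 1 held 1.06 (0.797 to 1.42) against 1.27 (1.23 to 1.31) in library 7. In cluster 10 library 5 held 1.04 (0.824 to 1.32) against 1.13 (0.998 to 1.29) in library 7. The smaller clusters 24 and 25 did not keep the order of libraries 7 to 9 above libraries 1 to 6. In cluster 24 library 4 held 1.38 (0.761 to 2.55) against 1.15 (0.916 to 1.44) in library 7, and in cluster 25 library 7 held 0.826 (0.425 to 1.59, 3 cells) against 1.08 (0.750 to 1.57) in library 5. Between shallower and deeper microglia of library 7 the chain shares differed by less than counting error. Among listed microglia of library 7, the 275 cells at or below the median depth held 30.1% C1qa, 37.6% C1qb and 32.4% C1qc, and the 274 deeper cells 30.7%, 37.6% and 31.8%. The other libraries were not split at their median depth. In single microglia of library 7, C1qb had the most UMIs of the chains in 43.5% of cells (39.3% to 47.8%), C1qc in 24.6%, C1qa in 19.1%, and 12.8% were tied. Macrophage-like cells had a C1qb to C1qa ratio of 0.797 (library 1) to 1.29 (library 7), with wide intervals. In library 7 that was 1.29 (1.13 to 1.47), and 1.07 (0.894 to 1.29) in the listed macrophages.

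**Figure D4:**
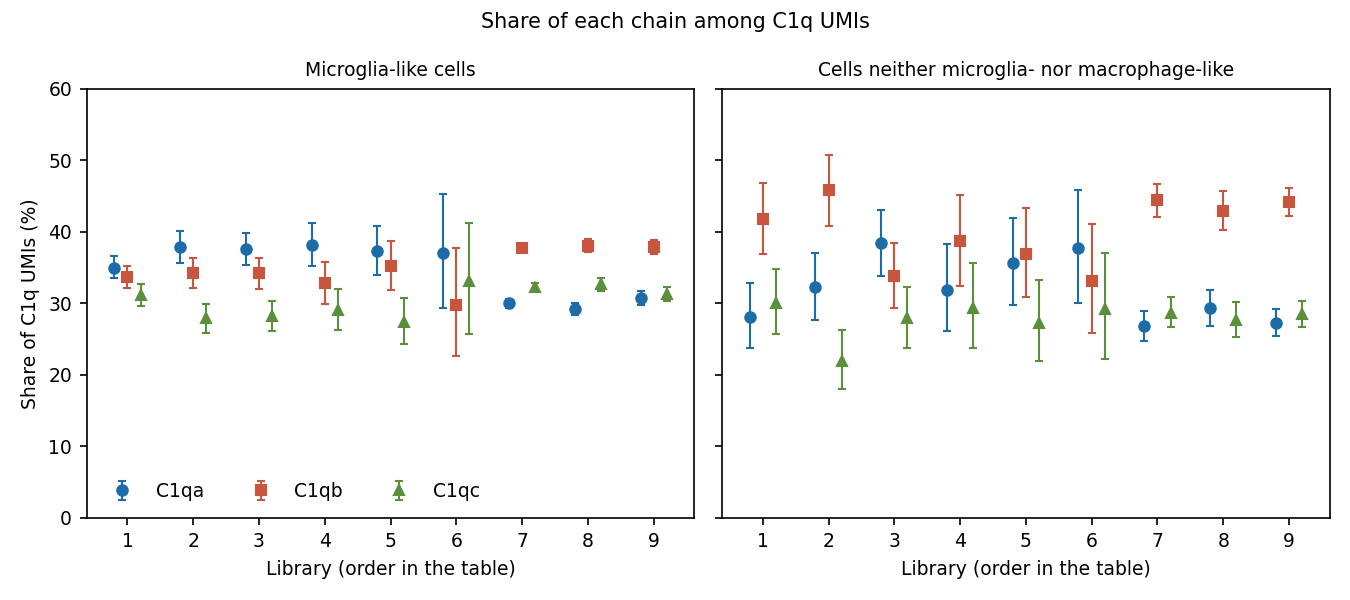
Share of each chain (%) among the C1q UMIs of microglia-like cells (left) and of cells that were neither microglia-like nor macrophage-like (right), by library, with 95% exact Clopper-Pearson intervals as bars. In microglia-like cells C1qa (35.0% to 38.2%) lies above C1qb in libraries 1 to 6, and C1qb (37.7% to 38.1%) above C1qa in libraries 7 to 9.

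Outside the myeloid classes the chains were found at a low level in every library, and that level moved with the library. The summed level was 300.3, 222 and 124 CPM in libraries 1 to 3, 62.0, 122 and 28.3 CPM in libraries 4 to 6, and 540.1, 466 and 571 CPM in libraries 7 to 9. As a percentage of the level in microglia-like cells of the same library, C1qa stood at 0.410% (library 6) to 3.51% (library 9), C1qb at 0.449% to 4.61% and C1qc at 0.356% to 3.60%. The same percentage for the 10 microglia markers had a median of 0.334% in library 4 to 3.49% in library 9. The number of the 10 markers that lay above C1qa was 8, 7 and 6 in libraries 1 to 3, 4, 8 and 5 in libraries 4 to 6, and 4 in each of libraries 7 to 9. For C1qb these numbers were 2, 2 and 7, then 4, 8 and 5, and then 1, 3 and 2. Of the markers, Sall1 lay highest in every library, at 1.54% to 25.6%, and in library 7 it was also at 47.1 CPM in listed astrocytes. Classes of at least 50 cells within 1 library also differed. In library 7 VSMCA-like cells held 435 CPM (382 to 493), pericyte-like cells 511 CPM, endothelial-like cells 531 CPM, fibroblast-like cells 598 CPM, astrocyte-like cells 645 CPM, neuron-like cells 706 CPM and EPC-like cells 755 CPM (676 to 840.4). The place of HbVC-like cells of library 7 depended on the totals: hemoglobin took 80.3% and mitochondrial genes 12.9% of their UMIs, and they held 250.5 CPM (197 to 314) of all UMIs and 3665 CPM (2888 to 4587) once mitochondrial, hemoglobin and Gh UMIs were left out of the totals, which was the lowest and the highest of these classes. In library 2 pericyte-like cells held 524 CPM (339 to 773) and HbVC-like cells 149 CPM (54.6 to 324), which became 227 CPM with the reduced totals, beside 226 to 229 CPM in neuron-like, astrocyte-like and endothelial-like cells. Between libraries, EPC-like cells held 755, 497 and 669 CPM in libraries 7 to 9 and 89.7, 114 and 46.8 CPM in libraries 4 to 6. Pituitary endocrine-like cells, found in libraries 4 to 6, held 47.7, 95.3 and 27.2 CPM there, with 38.2%, 52.3% and 43.1% of their UMIs from Gh, and 81.8, 212 and 49.6 CPM with the reduced totals.

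**Figure D5:**
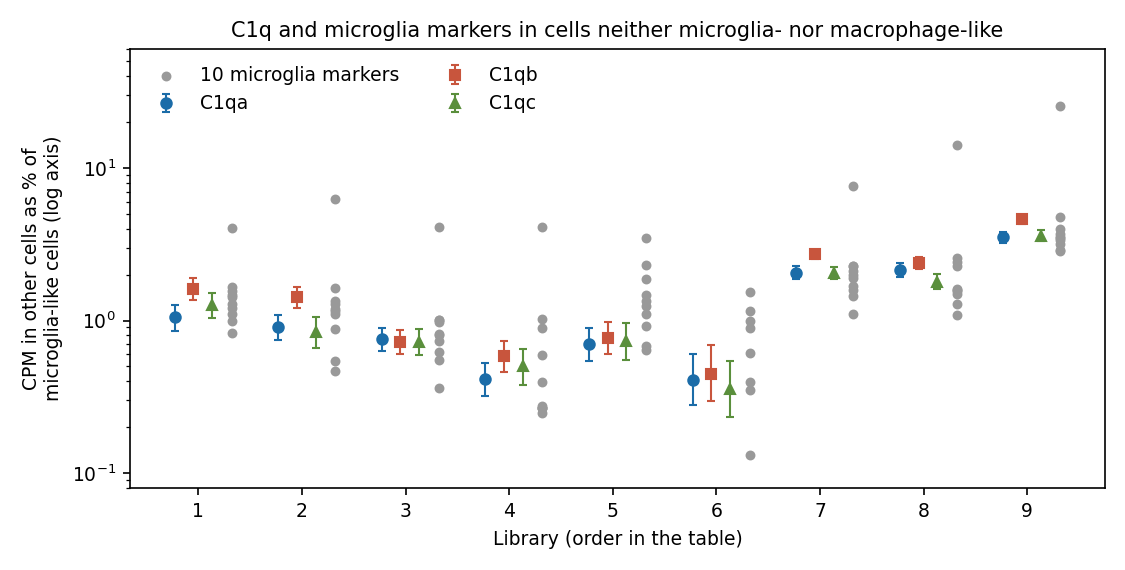
CPM in cells neither microglia-like nor macrophage-like, as a percentage of that in microglia-like cells of the same library (log axis), for the C1q chains with 95% intervals and for the 10 fixed microglia markers (grey). The chains lie within the range of the markers, from 0.356% to 0.449% in library 6 to 3.51% to 4.61% in library 9.

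The chains did not keep the same proportions inside and outside the myeloid classes. C1qb took a larger share of C1q UMIs in the other cells than in microglia-like cells in 8 of 9 libraries, and in 5 of them (1, 2, 7, 8 and 9) the intervals did not overlap. In library 7 its share was 44.4% (42.1% to 46.7%) against 37.7% (37.0% to 38.3%), in library 2 it was 45.8% (40.9% to 50.8%) against 34.2% (32.1% to 36.4%), and in library 3 it was 33.8% against 34.2%. C1qa took a larger share in the other cells in 3 of 9 libraries and C1qc in 1 of 9. By listed type of library 7, C1qb took 42.7% (39.9% to 45.4%) of C1q UMIs over all types other than microglia and macrophages, against 37.6% (36.7% to 38.4%) in microglia and 34.0% (30.6% to 37.6%) in macrophages. It took 43.6% in endothelial cells, 43.2% in astrocytes, 46.2% in VSMCA and in glutamatergic neurons, 41.2% in pericytes and 35.3% in EPC. What gave this difference was not tested.

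Of 60 listed complement genes, 49 are among the gene names of the table, and 21 of these reached 100 CPM in at least 1 type of at least 50 cells of library 7, where 4 of the 21 were highest in microglia and none in macrophages. These 21 are 42.9% of the listed genes in the table, and 21.4% of all other genes than the 3 C1q genes (3979 of 18631) reached that level. Of those 3979 genes 10.5% were highest in microglia and 8.62% in macrophages, against 4 and 0 of the 21 here. The proteases that C1q carries were near the limit of detection. C1s1 was at 39.0 CPM (20.1 to 68.0) in VSMCA, 27.0 CPM in pericytes and 3.94 CPM (2 UMIs) in microglia. C1ra had 5 UMIs over the 8 types, in VSMCA and pericytes, and 0 in microglia, which allows up to 5.91 CPM, taking 3 UMIs as the limit that a count of 0 allows. C1rb and C1s2 had 0 UMIs in all 8 types, which allows up to 4.63 CPM in endothelial cells, the type with the most UMIs in sum, and up to 57.2 CPM in glutamatergic neurons, the type with the fewest. Over whole libraries C1ra was at 0.547 to 4.14 CPM and C1s1 at 0.911 to 9.45 CPM. C4b, the fourth component, which C1s cleaves, was at 124 CPM (76.5 to 189) in astrocytes and at 1.97 CPM (1 UMI) in microglia. Macrophages, at 96.3 CPM (41.6 to 189.8), and pericytes, at 81.1 CPM (41.9 to 142), had intervals that overlapped that of astrocytes. C3, the central component, did not reach 100 CPM in any of the 8 types and stood at 5.28 CPM or less in each library.

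The 4 genes of the list that reached 100 CPM and were highest in microglia encode receptors or parts of one. Itgam, the alpha chain of complement receptor 3, stood at 270.1 CPM (227 to 319) in microglia against 108 CPM (49.6 to 206) in macrophages, and its partner Itgb2 at 128 CPM (98.9 to 163) against 84.3 CPM. C5ar1 and C3ar1, the receptors of the C5a and C3a fragments, stood at 148 CPM (116 to 185) and 130.1 CPM (101 to 166), against 108 and 84.3 CPM in macrophages. Of these 4, Itgam alone had intervals that did not overlap between microglia and macrophages. Among regulators, Serping1, the C1 inhibitor, stood at 399 CPM (304 to 514) in pericytes and 7.89 CPM in microglia. Clu, a fluid-phase regulator, reached 3518 CPM in astrocytes, and Vtn 6665 CPM in pericytes, for which it is a marker. Cd59a, which blocks the terminal complex, and Cr1l, a regulator of C3 on cell surfaces, were highest in endothelial cells at 356 and 120.3 CPM. For Cr1l the endothelial interval (95.1 to 150.1) overlapped that of microglia, at 94.6 CPM (69.8 to 125). Colec12, a collectin of the scavenger receptor type, reached 284 CPM in pericytes. Calr and Lrp1, which have been described as a receptor pair for C1q on phagocytes, were highest elsewhere: Calr reached 1449 CPM in glutamatergic neurons and 183 CPM in microglia, and Lrp1 335 CPM in astrocytes and 90.7 CPM in microglia. Cd93, once described as a C1q receptor, was at 145 CPM in endothelial cells and 1.97 CPM in microglia. The C1q relatives that neurons secrete lay elsewhere: C1ql2 reached 515 CPM (339 to 749), Cbln1 305 CPM (174 to 495) and C1ql1 248 CPM (132 to 424) in glutamatergic neurons. Few cells carried these levels, since UMIs of C1ql2, Cbln1 and C1ql1 were found in 4, 5 and 4 of the 55 neurons. The neuronal genes Sez6l2 (705 CPM), Sez6l (419 CPM) and Sez6 (133 CPM, 53.7 to 275, from 7 UMIs) were also highest there. Their proteins carry complement control domains.

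Of the listed myeloid transcription factors, Irf8 and Sall1 were highest in microglia and Spi1 in macrophages. Spi1, which encodes PU.1, stood at 309 CPM (263 to 362) in microglia and 325 CPM (214 to 473) in macrophages, and Irf8 at 363 CPM and 253 CPM, with overlapping intervals. Sall1, a factor of microglia, stood at 142 CPM in microglia against 0 UMIs in macrophages, which allows up to 36.1 CPM.

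Other genes followed the pattern of the summed chains closely. Over the 8 types of library 7 with at least 50 cells, the 10 genes with the highest Pearson's r of log2(CPM + 10) included Ly86 (0.994), Fcrls (0.990), Tyrobp (0.989), Ctss (0.988), Apbb1ip, Fcgr3, Aif1, Bin2 and Hk2 (0.982), among 7035 genes. All 10 were highest in microglia, and 8 points of which 2 are myeloid separate such genes only weakly. Over the 9 libraries the 10 highest included Laptm5 (0.991), Fcgr3, Rnf13, Itgb5, Ctss, Selplg, Csf1r, Bloc1s1 and Tyrobp (0.986), among 5037 genes. The libraries differed in the number of microglia-like and macrophage-like cells caught, from 42 in library 6 to 1128 in library 7. Fcgr3, Ctss and Tyrobp were on both lists. Ctss, a lysosomal protease, ran from 21.5 to 2217 CPM over the libraries, highest in library 7, and Rnf13, with a smaller range, from 30.4 to 118 CPM.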

How the data were processed

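The authors mapped reads to GRCm38 with Cell Ranger 2.2.0 and deposited its filtered UMI counts per gene and cell, without normalization (18634 genes, 29571 cells). The annotation release is not given in the sources used here, and genes were placed with GENCODE vM21. Columns of authors' comparisons were not used. Cell types of library 7 are those of the study's list, held here in part. The members and gene lists were chosen with earlier results of these data known.

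Counts were summed per class and scaled to CPM, with Poisson and Clopper-Pearson intervals at 95%. Complement genes (52) were left out before clustering: counts were scaled to 10000 per cell, logged, and 2000 variable genes, 13 principal components, 20 neighbours and Leiden resolution 1 were used with a fixed seed. A class name needed at least 3 fixed markers at 2 times the level of other cells (after adding 10 CPM) in at least 10% of cells. Named genes are the members, listed complement genes of at least 100 CPM in a type of at least 50 cells, the C1 proteases, myeloid transcription factors and the 10 genes most alike among those of at least 50 CPM, some of which are not reported here. C3, Ccl4, P2ry12 and Gh fall outside that rule and were chosen after seeing their values. Scrublet called 140 of 29571 cells as doublets, and how many it missed was not tested. All cells were kept in the main values, so doublets may remain. On simulated data, 1918 cells of 8 types fell into 10 clusters (adjusted Rand index 0.695), and all simulated microglia lay in microglia clusters. Software was scanpy 1.11.5, leidenalg 0.10.2, python-igraph 0.11.9, scikit-learn 1.9.0, scipy 1.17.1, numpy 2.4.6, pandas 2.3.3 and matplotlib 3.10.9 under Python 3.11.15. Library totals ran from 1522766 to 5488950 UMIs. The alternatives tried were cells of at least 1000 UMIs, called doublets left out, totals without mitochondrial, hemoglobin and Gh UMIs, the mean over cells, clusters in place of listed types, subtracted free RNA, thinning and resolution 0.5.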

Additional observations from a re-analysis of the deposited data

How the results depend on the processing

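No paired analysis was possible because each region and sleep group is 1 library and no result comes from a test. Of 61 alternatives over 14 values, 30 moved the value by less than its 95% interval and 31 by more. In microglia of library 7, cells of at least 1000 UMIs gave 6907 CPM for C1qa, 8498 CPM for C1qb and 7154 CPM for C1qc. Totals without mitochondrial, hemoglobin and Gh UMIs gave 7662, 9452 and 8052 CPM. The microglia-like clusters in place of the listed type gave 7027 CPM for C1qa, and the mean over cells 7979.7 CPM for C1qc. Shares of microglia with a UMI of C1qa, C1qb and C1qc were each 100% among cells of at least 1000 UMIs, and 96.5%, 98.2% and 97.8% after thinning to 500 UMIs. The myeloid share of C1q UMIs in the listed cells, 91.2%, became 86.6% with at least 1000 UMIs, 92.7% without called doublets and 93.4% with clusters in place of listed types. Over all cells, the median share of C1qa among C1q UMIs of the 9 libraries, 36.2%, became 34.0% with at least 1000 UMIs. That of C1qb, 36.2%, became 38.5%, and that of C1qc, 29.3%, became 30.4%. Each lay within the interval of the main value. The summed level over all cells of the lowest library, 84.0 CPM, became 47.7 CPM with at least 1000 UMIs, 129 CPM with the reduced totals and 128 CPM as the mean over cells, and that of the highest, 5668 CPM, became 4053, 6696 and 7207 CPM. In microglia-like cells the lowest library, 6999.8 CPM, became 4045 CPM with at least 1000 UMIs, where library 6 kept 11 such cells, libraries 1 and 5 kept 2 each and library 2 none, and 10968 CPM with the reduced totals. The highest, 23422 CPM, became 21340.0 CPM with at least 1000 UMIs, 24085 CPM without called doublets and 25011 CPM with the reduced totals. It became 25507 CPM, in library 1, without clusters 24 and 25. Without library 6 the lowest levels became 470.3 CPM over all cells and 12561 CPM in microglia-like cells, both in library 4. Leaving out library 6 or clusters 24 and 25 was chosen after seeing the data. The cause was not tested, except that the reduced totals remove Gh from the denominator by construction. The number of myeloid cells limits library 6, the library with the most UMIs, where 151 C1q UMIs of 20 cells stand behind the chain shares of microglia-like cells and 154 behind those of the other cells, and the number of cells limits types under 50 cells.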
